A study of Homo sapiens with 6 samples.

Results

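Interferon-stimulated genes of PANC-1 cells did not move as 1 block after CD73 knockdown. A first set, with the ubiquitin ligase gene DTX3L, PARP14, TRIM25 and IFITM3, was lower in the CD73 siRNA samples than in the negative control of the same number in all 3 pairs. That order alone was common: 8 of the 30 genes tested here had it, beside 24.5% of all tested genes. A second set, with IFIT1, IFIT2, IFIT3, OASL and HERC5, varied most with the replicate number, being low in both samples numbered 3, whichever siRNA they had received. All of this set but IFIT3 were also higher after CD73 siRNA in all 3 pairs. That order was held by 6 of the 30 genes, beside 27.0% of all tested genes. None of the genes in either set differed between the siRNA groups at an adjusted p under 0.05 in limma's test with Benjamini-Hochberg adjustment. The genes described are 49 type I interferon-stimulated and RNA-sensor genes, chosen by symbol and all found among the 30735 genes with a value. Of these, 30 reached 1 RPKM in at least 3 of the 6 samples and were tested, among 12527 genes tested in all.

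PANC-1 is an immortal human line that was derived from a ductal carcinoma of the pancreas. The cells were transfected with CD73 siRNA in 3 samples and with a negative control siRNA in the other 3, each sample carrying a replicate number from 1 to 3, and their RNA was sequenced. All 6 samples received a transfection with Lipofectamine in serum-free medium, and untransfected cells were not analysed here. The samples share 1 line and 1 genotype, and the sources used here give no time of harvest. CD73, encoded by NT5E, is a cell-surface enzyme that makes adenosine from AMP. The labels name no separate cultures, while the study's text presents the samples as knockdowns done separately and its methods list 1 CD73 siRNA product. The p-values set a difference in means against the remaining spread among these 6 samples of 1 line. Where the number is fitted as a block, that spread leaves out differences between the numbers.

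Type I interferons bind the receptor of IFNAR1 and IFNAR2, whose kinases JAK1 and TYK2 activate STAT2. STAT2 and IRF9 act in a complex that binds the interferon-stimulated response element in the promoters of many genes. The products of these genes sense viral RNA, block its translation or degrade it, tag proteins with the ubiquitin-like ISG15, or feed back on the receptor. Several are also induced without interferon, when RNA sensors such as RIG-I and MDA5 activate IRF3, which recognises the same element.

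The promoters in which that element lies were taken from RefSeq (GRCh38.p14), which gave a window of 250 bases before to 50 bases after the start for 39 of the 49 genes. IFIT2, IFITM2, MX2, OAS2, OASL, IRF7, DHX58, USP18, PML and IFNAR2 were not matched. The core of the element, searched on both strands as GAAA, any 2 bases and GAAA again, lay in 31 of 52 windows of these genes (59.6%), against 3.57% of 35116 windows in the whole table. By gene it was present in 26 of 39, against 4.38% of 27305 genes. The STAT dimer site, searched as TTCNNNGAA on both strands, lay in 12 windows (23.1%), against 7.66% of all. Of the 7 tested genes with lower values after CD73 siRNA and no overlap between groups, DTX3L, PARP14, IFITM3, OAS3 and PLSCR1 held the core. TRIM25 did not, and IFNAR2 had no window. Among the genes low in the samples numbered 3, IFIT1, IFIT3, HERC5, IFI6, ISG15 and IFIH1 held the core and RIGI did not. A match describes the letters only. Shown here, from 200 bases before to 20 bases after the start on the gene's own strand, are the 6 promoters that hold the core and belong to the genes with the widest differences within a replicate number, with each match in capitals. A match read on the opposite strand appears as TTTC, 2 bases and TTTC.
DTX3L, chr3:122564138-122564357, forward strand: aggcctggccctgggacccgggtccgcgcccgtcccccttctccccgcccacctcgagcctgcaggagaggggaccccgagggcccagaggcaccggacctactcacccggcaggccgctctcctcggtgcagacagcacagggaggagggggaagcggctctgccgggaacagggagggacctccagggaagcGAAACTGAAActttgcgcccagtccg
IFITM3, chr11:320841-321060, reverse strand: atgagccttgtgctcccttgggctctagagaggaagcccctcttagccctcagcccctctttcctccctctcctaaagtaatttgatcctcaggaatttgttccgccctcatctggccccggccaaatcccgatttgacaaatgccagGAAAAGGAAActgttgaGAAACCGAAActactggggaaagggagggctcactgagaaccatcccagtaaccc
OAS3, chr12:112938274-112938493, forward strand: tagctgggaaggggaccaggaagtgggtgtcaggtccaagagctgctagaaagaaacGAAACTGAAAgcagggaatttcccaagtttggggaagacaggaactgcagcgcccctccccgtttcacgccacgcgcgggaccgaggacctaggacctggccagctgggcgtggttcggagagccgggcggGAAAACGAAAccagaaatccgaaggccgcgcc
LGALS3BP, chr17:78979904-78980123, reverse strand: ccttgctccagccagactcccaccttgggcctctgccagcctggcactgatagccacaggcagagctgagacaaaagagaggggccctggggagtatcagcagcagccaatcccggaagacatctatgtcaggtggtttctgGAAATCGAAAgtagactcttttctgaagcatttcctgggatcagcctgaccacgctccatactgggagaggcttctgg
IFIT1, chr10:89392423-89392642, forward strand: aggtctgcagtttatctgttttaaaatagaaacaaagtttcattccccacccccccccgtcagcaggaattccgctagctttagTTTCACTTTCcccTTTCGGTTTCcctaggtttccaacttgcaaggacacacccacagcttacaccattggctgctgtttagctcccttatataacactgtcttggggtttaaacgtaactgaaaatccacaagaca
IFIT3, chr10:89327797-89328016, forward strand: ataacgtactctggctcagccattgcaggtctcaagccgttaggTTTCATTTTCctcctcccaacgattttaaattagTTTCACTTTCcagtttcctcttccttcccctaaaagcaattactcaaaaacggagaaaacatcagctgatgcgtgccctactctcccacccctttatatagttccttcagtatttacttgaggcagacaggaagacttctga
The match of DTX3L spans its start, and those of IFIT1 and IFIT3 lie as pairs upstream of theirs. DTX3L and PARP9 lie head to head on chromosome 3, and the windows of both hold the same 10 bases, from 122564332 to 122564341.

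NT5E was checked first. It stood at 3.36, 6.85 and 8.22 RPKM in the CD73 siRNA samples numbered 1, 2 and 3, and at 14.0, 13.9 and 17.1 RPKM in the control samples of these numbers. All 3 CD73 siRNA samples were below all 3 controls, so the labels and the target went together. The same order was held by 8.07% of all tested genes. The log2 difference of NT5E was -1.23 (SE 0.26). Limma's test gave NT5E an unadjusted p of 0.0014 and a Benjamini-Hochberg adjusted p of 0.303. The ratio within a number was 0.241 in number 1, 0.494 in number 2 and 0.479 in number 3. Library totals read from the values were 15009105 to 16836202. The epithelial keratins KRT8 and KRT18 were present, at 30.01 to 158 and 36.3 to 87.0 RPKM, whereas KRT7, another ductal keratin, was at 0.107 RPKM or less. The immune, endothelial and fibroblast markers listed in the files did not pass 0.231 RPKM in any sample, PTPRC and CDH5 being at or near 0. KRT8 and KRT18 were lower in all 3 CD73 siRNA samples than in any control, with log2 differences of -1.27 and -0.68. Of the other epithelial markers, KRT19 (-0.26) and EPCAM (0.03) overlapped between the groups. Their part in the differences described here was not tested.

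Across all genes, limma called 1 gene at an adjusted p under 0.05 (0.00798% of those tested) and 392 genes at an unadjusted p under 0.01. The gene past the adjusted threshold was not NT5E. None of the 30 interferon-stimulated genes passed the adjusted threshold, and 5 had an unadjusted p under 0.05, beside 12.1% of all tested genes. At an unadjusted p under 0.01, 4 of the 30 were lower after CD73 siRNA, beside 1.31% of all tested genes. None was higher, beside 1.82% of all tested genes. The 4 lower genes were DTX3L, PARP14, TRIM25 and IFITM3, and their number became 0 without CD73 siRNA replicate 1, 1 without CD73 siRNA replicate 3 or control replicate 1, and 2 without control replicate 3. In these bulk samples, fewer cells with a transcript and less RNA per cell cannot be told apart. The groups did not overlap for 7 of the 30 with lower values, beside 8.07% of all genes, and for 1 with higher values, ADAR, beside 10.3%. Those 7 were IFITM3, OAS3, PARP14, DTX3L, TRIM25, PLSCR1 and IFNAR2. Since samples with the same number deviated together, the number was also fitted as a block. With the block, 2 of the 30 were higher at an unadjusted p under 0.01, beside 4.27% of all genes, and 4 were lower, beside 3.3%. With 3 samples against 3, an exact permutation test on 1 gene goes no lower than 0.1.

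The median of the 30 genes was below 0 in numbers 1 and 3 and near 0 in number 2. The difference was smallest in size in number 2 for 16 of the 30, beside 53.6% of all tested genes. Within number 1, 20 of the 30 genes were lower after CD73 siRNA, beside 48.1% of all tested genes. The median log2 difference was -0.20, beside 0.02 over all tested genes. Within number 2, 18 were higher and 12 were lower, beside 50.3% of all tested genes lower. The median was 0.04, beside -0.0012 over all. Within number 3, 19 were lower, beside 47.6% of all tested genes. The median was -0.12, beside 0.01 over all. Over both groups the median was -0.09, beside 0.01 over all. By sign, 8 of the 30 were lower in all 3 numbers, beside 24.5% of all tested genes, and 6 were higher in all 3, beside 27.0%. A further 7 were lower in numbers 1 and 3 and higher in number 2, a pattern that 7.82% of all tested genes had. The 6 genes higher in all 3 were IFIT1, IFIT2, OASL, HERC5, USP18 and ADAR. Each number holds 1 sample per group, so these differences have no replicate check, and whether the effect of the siRNA differed between numbers could not be tested.

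**Figure D1:**
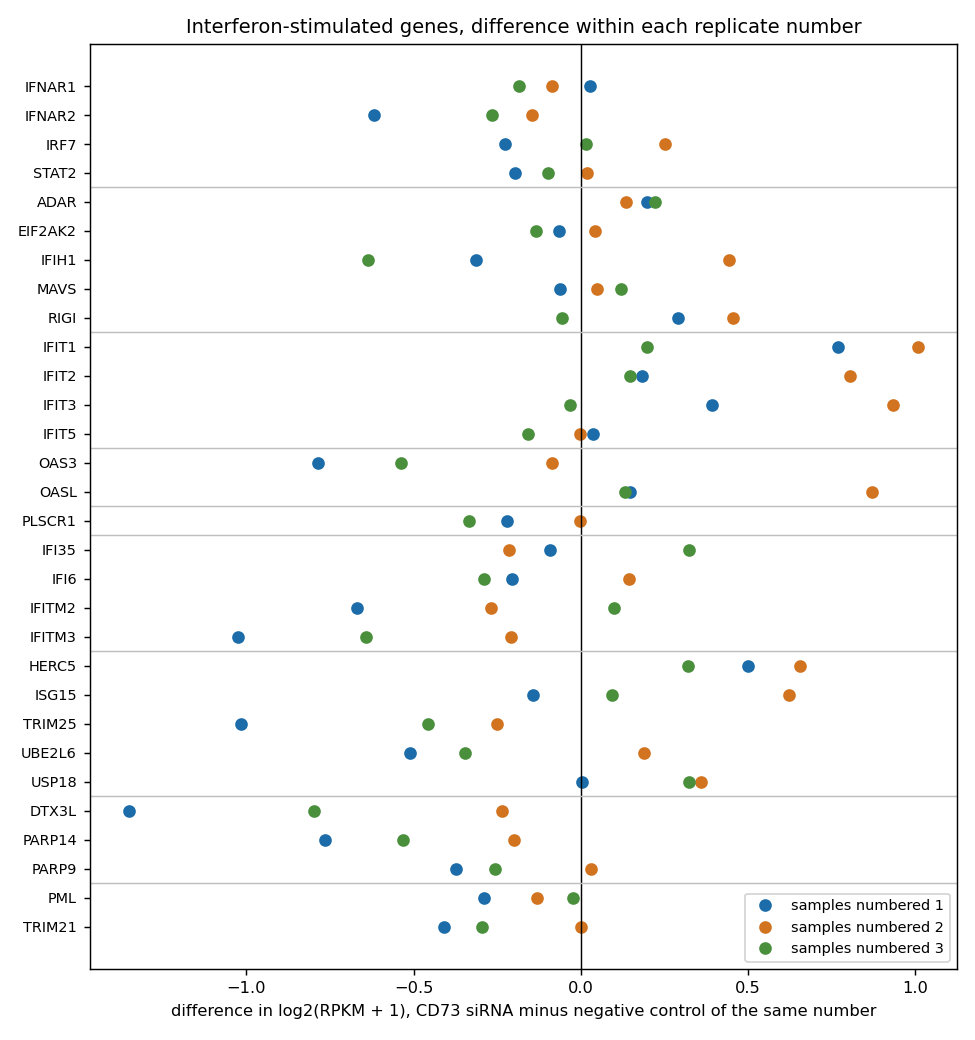
Difference in log2(RPKM + 1), CD73 siRNA minus the negative control of the same number, for the 30 tested genes, with 1 point per replicate number and lines between functional groups. DTX3L lies furthest to the left at -1.35 in number 1, and the points of IFIT1, IFIT2, IFIT3 and OASL in number 2 lie furthest to the right, from 0.81 to 1.01.

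Changes of 1.5-fold on the log2(RPKM + 1) scale were counted in each number. In number 1, 7 of the 30 were lower by that much (IFITM2, IFITM3, OAS3, PARP14, DTX3L, TRIM25 and IFNAR2), beside 5.48% of all genes. Only IFIT1 was higher by that much in number 1, beside 7.93%. In number 2, 6 were higher (IFIT1, IFIT2, IFIT3, ISG15, OASL and HERC5), beside 1.4% of all genes, and none was lower, beside 1.08%. In number 3, 3 were lower (IFIH1, IFITM3 and DTX3L), beside 1.96%, and none was higher, beside 2.6%.

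DTX3L, PARP9 and PARP14 are interferon-induced neighbours on chromosome 3. DTX3L is a ubiquitin ligase that pairs with PARP9, and PARP14 is an ADP-ribosyltransferase. DTX3L (ENSG00000163840, chromosome 3, 122564238 to 122575203) stood at 2.003, 3.62 and 2.12 RPKM in CD73 siRNA samples 1, 2 and 3, against 6.66, 4.43 and 4.42 RPKM in the controls. Every CD73 siRNA sample was below every control, and the sample numbered 2 was nearest to them. The log2 difference was -0.79 (SE 0.21), with an unadjusted p of 0.0051 and an adjusted p of 0.303 in limma's test with Benjamini-Hochberg adjustment. Within the numbers the ratio was 0.301 (95% interval 0.254 to 0.354) in number 1, 0.816 (0.703 to 0.945) in number 2 and 0.479 (0.403 to 0.568) in number 3. These intervals are exact binomial intervals on the read numbers, and they cover counting error only.

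PARP14 (ENSG00000173193, chromosome 3, 122680618 to 122730840) was at 2.44, 2.70 and 2.30 RPKM after CD73 siRNA and at 4.84, 3.25 and 3.77 RPKM in the controls. The groups did not overlap. The log2 difference was -0.50 (SE 0.14, unadjusted p 0.0084, adjusted p 0.307 by limma with Benjamini-Hochberg adjustment). PARP9 (ENSG00000138496, chromosome 3, 122527924 to 122564577) was at 0.988, 1.08 and 0.691 RPKM against 1.58, 1.04 and 1.02 RPKM. Its groups overlapped in number 2, and its log2 difference of -0.20 had an unadjusted p of 0.253. DTX3L and PARP9 overlap on opposite strands, and the sources used here do not state whether counting used strand. How reads in the shared stretch were counted is therefore uncertain.

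TRIM25, a ubiquitin ligase that modifies RIG-I and can conjugate ISG15, was 1 of 5 tested genes of the ISG15 system and the only 1 of them with groups that did not overlap. It was at 12.2, 16.4 and 17.3 RPKM in CD73 siRNA samples 1, 2 and 3 and at 25.7, 19.8 and 24.1 RPKM in the controls. The gap was widest in number 1, with a ratio of 0.474 (95% interval 0.449 to 0.501). The log2 difference was -0.58 (SE 0.16, unadjusted p 0.0061, adjusted p 0.305 by limma with Benjamini-Hochberg adjustment). TRIM25 (chromosome 17, 56836387 to 56914080) overlaps other gene models, among them DGKE on the opposite strand, so its reads are uncertain in the same way.

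IFITM3, a membrane protein that restricts viral entry, had the highest mean level of the 49 genes, 63.4 RPKM. Its values were 45.7, 55.1 and 47.4 RPKM after CD73 siRNA and 94.0, 63.8 and 74.6 RPKM in the controls. The groups did not overlap. The log2 difference was -0.63 (SE 0.15, unadjusted p 0.0033, adjusted p 0.303 by limma with Benjamini-Hochberg adjustment). IFITM3 (ENSG00000142089, chromosome 11, 319669 to 327537) is close in sequence to IFITM1 and IFITM2, so how reads that match several of them were counted is uncertain. IFITM2 ran from 1.56 to 3.80 RPKM with overlapping groups, and IFITM1 did not pass 0.346 RPKM.

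OAS3, which makes the oligoadenylates that activate RNase L, was at 5.72, 6.29 and 5.68 RPKM after CD73 siRNA and at 10.6, 6.74 and 8.70 RPKM in the controls. The groups did not overlap, though in number 2 they were close, with a ratio of 0.933 (95% interval 0.847 to 1.028). The log2 difference was -0.47 (SE 0.15) with an unadjusted p of 0.0153 in limma's test. LGALS3BP, a secreted glycoprotein, was under the limit for testing. It was at 0.538, 0.390 and 0.481 RPKM after CD73 siRNA and at 2.51, 0.449 and 1.41 RPKM in the controls, the groups overlapping through control number 2. The ratio within the number was 0.215 (0.141 to 0.318) in number 1 and 0.340 (0.214 to 0.528) in number 3, and 0.868 (0.467 to 1.60) in number 2, so that the interval includes no difference in number 2. PLSCR1, a lipid scramblase that is also induced by interferon, had non-overlapping groups by the narrowest of gaps, 5.72 RPKM in CD73 siRNA number 2 against 5.73 RPKM in control number 2, with an unadjusted p of 0.128 in limma's test.

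**Figure D2:**
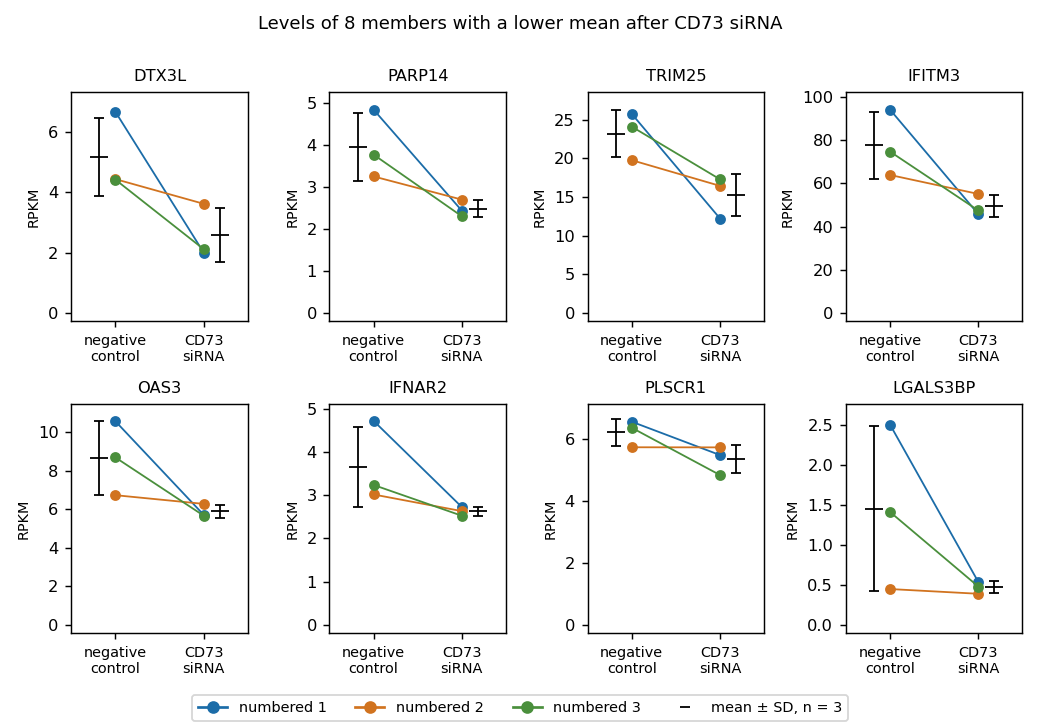
RPKM in each sample of 8 genes with a lower mean after CD73 siRNA, with lines joining samples of the same number and bars giving mean ± SD of 3 samples. For DTX3L, PARP14, TRIM25, IFITM3 and OAS3 all CD73 siRNA points lie below all control points, while for LGALS3BP they overlap at number 2.

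The IFIT genes encode proteins that bind viral RNA and block its translation, and OASL is a relative of the OAS enzymes that boosts RIG-I. Here the replicate number mattered most. IFIT1 (ENSG00000185745, chromosome 10, 89392546 to 89406486) stood at 11.2, 14.6 and 2.15 RPKM in CD73 siRNA samples 1, 2 and 3 and at 6.15, 6.77 and 1.75 RPKM in the controls. Both samples numbered 3 were the lowest of their group, and each CD73 siRNA sample was above the control of its number. The log2 difference between the groups was 0.66 (SE 0.62) with an unadjusted p of 0.318 in limma's test. Once the number entered as a block, limma gave an unadjusted p of 0.0045 and a Benjamini-Hochberg adjusted p of 0.116. Within the numbers the ratio was 1.82 (95% interval 1.62 to 2.04) in number 1, 2.16 (1.94 to 2.41) in number 2 and 1.23 (0.968 to 1.57) in number 3.

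IFIT2 (ENSG00000119922) was at 7.57, 17.6 and 0.739 RPKM after CD73 siRNA and at 6.55, 9.63 and 0.569 RPKM in the controls. IFIT3 (ENSG00000119917) was at 7.82, 12.4 and 0.720 RPKM against 5.72, 6.02 and 0.757 RPKM. OASL (ENSG00000135114) was at 4.92, 7.42 and 0.304 RPKM against 4.34, 3.61 and 0.189 RPKM. In all 3 genes the samples numbered 3 lay far below the others of their group, and CD73 siRNA number 2 was the highest of the 6. HERC5, the ligase that attaches ISG15 to new proteins, was at 3.60, 4.39 and 1.16 RPKM after CD73 siRNA and at 2.25, 2.42 and 0.727 RPKM in the controls. It too was higher after CD73 siRNA in every number. In limma's test with the block its unadjusted p was 0.0038 and its Benjamini-Hochberg adjusted p 0.113. IFIT5, the fourth IFIT gene, did not share the pattern and ranged from 4.44 to 5.14 RPKM over the 6 samples.

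The replicate number was then tested as a term beside the siRNA in limma, a test chosen after these values were seen. It passed an adjusted p of 0.05 for 5 of the 30 genes, beside 1.82% of all tested genes, and an unadjusted p of 0.01 for 8, beside 9.27% of all. The 5 were IFIT1, IFIT2, IFIT3, OASL and HERC5, with Benjamini-Hochberg adjusted p-values of 0.0247, 0.0103, 0.0176, 0.0176 and 0.0307 from limma. The mean over the samples numbered 1 and 2 was 4.97-fold that over the samples numbered 3 for IFIT1, 15.8-fold for IFIT2, 10.8-fold for IFIT3, 20.6-fold for OASL and 3.36-fold for HERC5. The widest folds rest on few reads in the samples numbered 3 and have no interval. CD73 siRNA and control had 18 and 10 reads there for OASL, 51 and 35 for IFIT2, and 32 and 30 for IFIT3. The call rested on both samples numbered 3. Without either of them 0 genes of all those tested passed, with 1 sample then left at that number, and the largest unadjusted p among the 5 was 0.005 without the CD73 siRNA sample and 0.00134 without the control. With no filter on low values, 0 genes passed as well. IFI6, ISG15 and RIGI were past the unadjusted threshold of 0.01 only.

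ISG15 (ENSG00000187608), the ubiquitin-like modifier, was at 54.1, 73.4 and 31.5 RPKM after CD73 siRNA and at 59.8, 47.3 and 29.5 RPKM in the controls. The groups overlapped, and its ratio was 0.905 in number 1, 1.55 in number 2 and 1.07 in number 3. IFI6, a mitochondrial protein, ran from 9.20 to 19.5 RPKM, the lowest sample of each group being that numbered 3. UBE2L6, the conjugating enzyme for ISG15, ranged from 1.91 to 4.17 RPKM, and USP18, the protease that removes ISG15 and dampens the receptor, from 3.004 to 4.67 RPKM. Neither passed an unadjusted p of 0.05 in limma's test, and in both the groups overlapped.

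**Figure D3:**
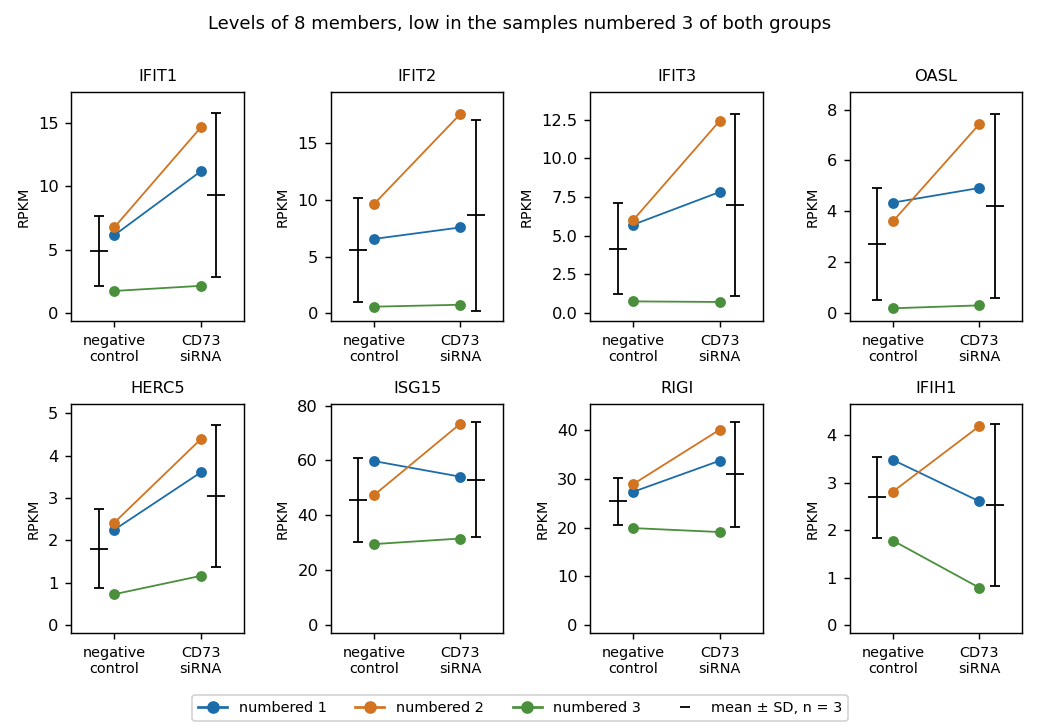
RPKM in each sample of 8 genes that were lowest in the samples numbered 3 of both groups, with lines joining samples of the same number and bars giving mean ± SD of 3 samples. For IFIT2 the points numbered 3 lie at 0.569 and 0.739 RPKM, and those numbered 1 and 2 between 6.55 and 17.6 RPKM.

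**Figure D4:**
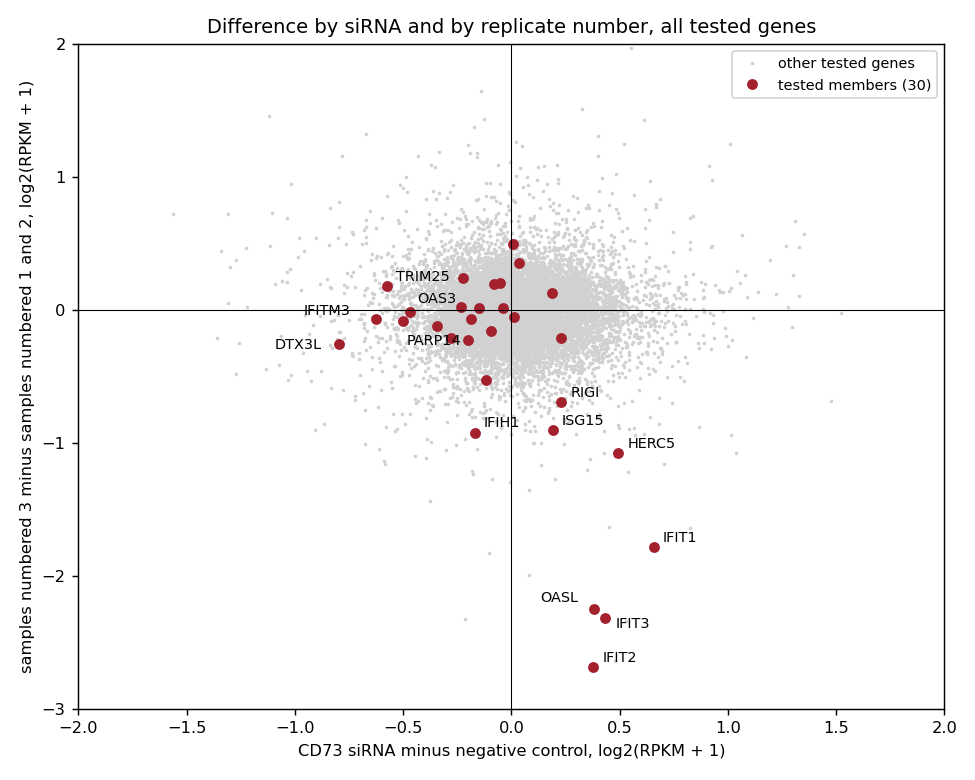
Each tested gene by its log2(RPKM + 1) difference between CD73 siRNA and control (horizontal) and between the samples numbered 3 and the others (vertical), with 30 interferon-stimulated genes in red and 2 tested genes outside the axes. DTX3L (-0.79) and IFITM3 (-0.63) lie left of the centre, and IFIT2 (-2.69) lies far below it.

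Of the RNA sensors and their adaptor, none of the 5 tested genes was lower in all 3 numbers. RIG-I, encoded by RIGI and a sensor of uncapped viral RNA, was at 33.8, 40.2 and 19.1 RPKM after CD73 siRNA and at 27.4, 28.98 and 19.9 RPKM in the controls. The samples numbered 3 were again lowest, and the groups overlapped. IFIH1, which encodes the long-RNA sensor MDA5, was at 2.61, 4.20 and 0.787 RPKM against 3.48, 2.82 and 1.78 RPKM, so that it was lower in numbers 1 and 3 and higher in number 2. Its ratio was 0.749 (95% interval 0.624 to 0.898) in number 1, 1.49 (1.26 to 1.77) in number 2 and 0.442 (0.328 to 0.601) in number 3.

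DHX58, the regulator LGP2, was under the limit for testing, at 0.809, 1.09 and 0.232 RPKM after CD73 siRNA and at 0.665, 0.838 and 0.451 RPKM in the controls. TLR3, the endosomal sensor of double-stranded RNA, was at 0.0648, 0.0189 and 0.0530 RPKM against 0.176, 0.0479 and 0.0991 RPKM. These TLR3 levels came from 2 to 19 reads a sample, and its ratio was 0.368 (95% interval 0.131 to 0.913) in number 1, with intervals that included 1 in numbers 2 and 3. Among the sensor genes ADAR, an RNA editing enzyme that limits sensing of the cell's own RNA, was the one with groups that did not overlap.

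ADAR was at 49.4, 46.6 and 53.5 RPKM after CD73 siRNA and at 42.9, 42.3 and 45.7 RPKM in the controls. The log2 difference was 0.19 (SE 0.10) with an unadjusted p of 0.0881 in limma's test, and the groups overlapped when samples were rescaled to a common median. PKR, the kinase encoded by EIF2AK2 that stops translation, was at 14.6, 14.0 and 15.8 RPKM against 15.3, 13.5 and 17.4 RPKM. MAVS, the mitochondrial adaptor of RIG-I and MDA5, was at 8.51, 8.13 and 11.4 RPKM against 8.92, 7.83 and 10.4 RPKM. Neither gene separated the groups.

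The receptor and transcription factor genes came out as follows. IFNAR2, the subunit that binds interferon most tightly, was at 2.72, 2.63 and 2.52 RPKM after CD73 siRNA and at 4.72, 3.01 and 3.23 RPKM in the controls. The groups did not overlap, and the log2 difference was -0.34 (SE 0.15) with an unadjusted p of 0.0552 in limma's test. IFNAR1, the other subunit, was at 13.3, 10.5 and 12.9 RPKM against 13.0, 11.2 and 14.8 RPKM, and its groups overlapped.

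STAT2 was at 5.19, 4.76 and 4.34 RPKM after CD73 siRNA and at 6.10, 4.69 and 4.71 RPKM in the controls. IRF7, the factor that amplifies interferon production, was at 2.94, 3.75 and 3.16 RPKM against 3.61, 2.99 and 3.12 RPKM. Both overlapped between the groups. IRF9, the DNA-binding part of the complex, was listed between 0.197 and 0.386 RPKM in the 6 samples and was not tested.

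The remaining genes were mostly silent. MX1, a GTPase that blocks viral nucleoproteins, was at 0.347, 0.361 and 0.172 RPKM after CD73 siRNA and at 0.232, 0.209 and 0.131 RPKM in the controls. OAS1 was at 0.0754, 0.0771 and 0.0240 RPKM against 0.252, 0.104 and 0.0808 RPKM. In all, 17 of the 49 genes were under 1 RPKM in every sample: IFI27, IFI44, IFI44L, IFITM1, ISG20, MX1, MX2, OAS1, OAS2, IRF9, TLR3, BST2, HERC6, RSAD2, SAMD9, SAMD9L and SP100. IFI44L had 1 read in 1 of the 6 samples. Of the 8 Mx and other effector genes PLSCR1 alone was tested. IFI35, PML and TRIM21, the last an antibody receptor in the cytosol, had overlapping groups and unadjusted p-values of 0.979, 0.318 and 0.213 in limma's test.

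Other genes of the pathway were taken from a list of 50 symbols, of which 48 were found, 26 were tested and 20 were under 1 RPKM in every sample. At an unadjusted p under 0.01 in limma's test, 4 of the 26 were lower and 1 was higher, beside the shares of all genes given above (1.31% and 1.82%), and none passed the adjusted threshold. JAK1, the receptor kinase, was at 50.2, 57.0 and 51.8 RPKM after CD73 siRNA and at 85.7, 68.8 and 75.5 RPKM in the controls. IRF2, a repressor at the same element, was at 4.37, 5.89 and 4.96 RPKM against 10.8, 7.89 and 7.65 RPKM. In both genes the groups were fully apart, with log2 differences of -0.52 (unadjusted p 0.0016) and -0.68 (unadjusted p 0.0024) from limma.

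IFNGR1, the receptor of interferon gamma, was at 14.3, 16.3 and 13.9 RPKM after CD73 siRNA and at 19.7, 19.7 and 17.96 RPKM in the controls. MYD88, a Toll-like receptor adaptor, was at 9.89, 10.2 and 10.9 RPKM against 18.8, 12.3 and 14.6 RPKM. The gene that was higher, TRAF3, an adaptor downstream of MAVS, was at 10.0, 10.9 and 12.0 RPKM against 6.22, 8.04 and 7.91 RPKM. In these 3 genes no CD73 siRNA sample overlapped a control. The pathway genes named were picked by p, so that order adds little. Of all 26 tested, 10 were lower without overlap, beside 8.07% of all tested genes, and 1 was higher, beside 10.3%.

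Of the genes with an unadjusted p between 0.01 and 0.05, IRF1, an interferon-induced transcription factor, was at 0.949, 1.60 and 0.541 RPKM after CD73 siRNA and at 3.53, 1.81 and 1.63 RPKM in the controls. SOCS3, a feedback inhibitor, was at 22.3, 28.8 and 25.6 RPKM against 36.0, 35.5 and 29.6 RPKM. PSME2, a proteasome activator subunit, was at 15.6, 15.3 and 14.3 RPKM against 22.4, 17.7 and 16.8 RPKM. All 3 were lower in every CD73 siRNA sample than in any control.

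Among the interferon genes, the 3 type III genes and IFNB1 were lowest in the samples numbered 3. IFNL1, a type III interferon, which signals through another receptor to the same element, was at 4.06, 17.3 and 0.901 RPKM after CD73 siRNA and at 4.37, 7.29 and 0.311 RPKM in the controls. IFNL2 was at 5.65, 18.4 and 0.967 RPKM against 6.09, 9.35 and 0.271 RPKM, and IFNL3 at 6.70, 21.2 and 0.924 RPKM against 6.47, 11.4 and 0 RPKM. The samples numbered 3 were lowest and CD73 siRNA number 2 highest, as for IFIT2. The number term had Benjamini-Hochberg adjusted p-values of 0.0229, 0.0162 and 0.0103 in limma for IFNL1, IFNL2 and IFNL3. These were the 3 of the 26 genes that passed, beside 1.82% of all tested genes. With no filter on low values, 0 genes passed. In the samples numbered 3 these genes had 13, 12 and 12 reads after CD73 siRNA and 4, 3 and 0 reads in the control. IFNL2 and IFNL3 are near-identical copies, so how reads that match both were counted is uncertain. IFNB1, the type I interferon of non-immune cells, was supported by 2, 12 and 0 reads after CD73 siRNA and by 1, 3 and 0 reads in the controls. Both samples numbered 3 were at 0, and IFNB1 was not tested. IFNE, another type I interferon gene, did not share the order, at 0.127, 0.129 and 0.322 RPKM after CD73 siRNA and at 0.296, 0.480 and 0.271 RPKM in the controls.

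**Figure D5:**
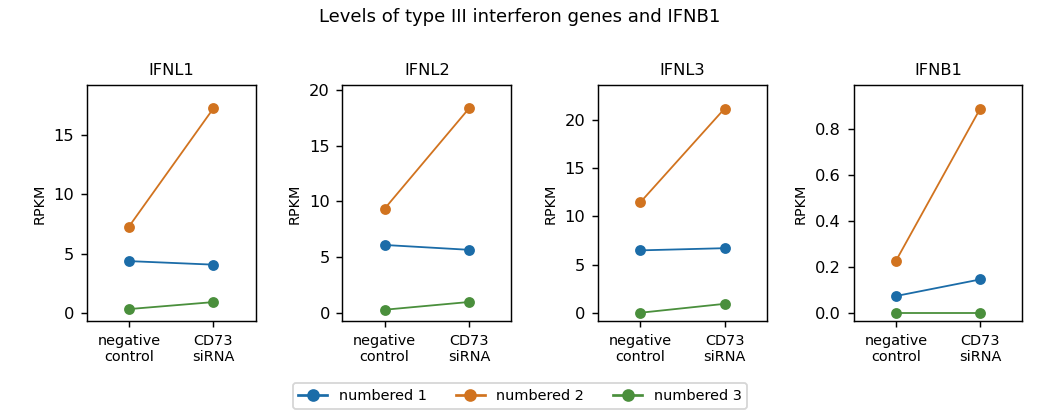
RPKM in each sample of IFNL1, IFNL2, IFNL3 and IFNB1, with lines joining samples of the same replicate number. The highest point of each panel is CD73 siRNA number 2, at 17.3, 18.4, 21.2 and 0.888 RPKM, and the points numbered 3 lie at 0.967 RPKM or less.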

How the data were processed

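RNA-seq of PANC-1 cells was deposited by the authors as 1 table per sample with 1 normalized value per Ensembl gene. The submitters' processing notes name Bowtie2 2.2.3, HTSeq 0.6.0 and the build hg38; whether counting used strand is not given in the sources used here. The deposited values were read as RPKM (reads scaled to gene length and library total), since, multiplied by the merged exon length in GENCODE release 29, they were whole multiples of 1 step per sample in 95.5% to 95.6% of genes under 1000 reads (tolerance 0.05). The step gave library totals and read numbers. Of the identifiers, 132 were not in that release.

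Groups and replicate numbers came from the sample titles. Genes that reached 1 RPKM in 3 or more of the 6 samples were compared on log2(RPKM + 1), a scale that understates changes of low genes, with limma 3.58.1 in R 4.3.3 (lmFit, eBayes with a trend) and Benjamini-Hochberg adjustment over the 12527 genes tested. Genes were counted at an adjusted p under 0.05 and at an unadjusted p under 0.01. Same-numbered samples deviated together (correlations of the deviations from the group means 0.197, 0.481 and 0.553 for numbers 1, 2 and 3), so the number was taken to pair the samples and was fitted as a block beside the main test. All tests were two-sided, and the script was tested on simulated data. Ratios within a number have exact binomial intervals at 95%.

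The genes and the pathway list were chosen with earlier results of these data known. Values per sample are given for NT5E, for receptor, transcription factor and sensor genes, for genes with an unadjusted p under 0.05 or a log2 difference of at least 1 within a number, for the 5 highest, and for IFIT1, IFIT3, ISG15, MX1 and OAS1. Of the genes this rule names, 1 is not reported here. IFIT2, OASL, HERC5, PLSCR1 and the interferon genes were named after their values were seen. Alternatives were a pseudocount of 0.1, no filter, the block, quantile normalization, median rescaling, voom on recovered read numbers, and each sample left out.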

Additional observations from a re-analysis of the deposited data

How the results depend on the processing

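NT5E kept its direction and stayed past the unadjusted threshold in each alternative run, and the 0 interferon-stimulated genes past the adjusted threshold stayed at 0. The 1 gene past the adjusted threshold among all genes was lost (0 genes) with a pseudocount of 0.1, without a filter, with the block, after quantile normalization, with voom and without any 1 sample. The 392 genes at an unadjusted p under 0.01 became 948 with the replicate block, and 116 to 792 when 1 sample was left out. Of the interferon-stimulated genes, 2 were then higher with the block (IFIT1 and HERC5), where the main test had 0, and the block changed no other call among them. The 4 that were lower became 1 without a filter and 0 to 6 with 1 sample left out, with 0 without CD73 siRNA replicate 1, 1 without CD73 siRNA replicate 3, 1 without control replicate 1 and 2 without control replicate 3. The 5 other pathway genes became 2 to 4 with 1 sample left out, with 2 without CD73 siRNA replicate 1 or 3. The 1 gene higher without overlap became 0 after quantile normalization and 0 after median rescaling, and 1 to 6 with 1 sample left out. Without a filter, the median within number 1 was -0.066, with 16 genes higher and 33 lower, and 21 were lower in number 2 and 33 in number 3. The 5 genes past the number term, in alternatives chosen after seeing the data, became 0 without a filter, 10 with voom and 0 to 10 with 1 sample left out. The cause of these shifts was not tested.

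Some differences changed sign, among them small ones and the wider ones of IFIT2 (0.38), IFIT3 (0.43) and OASL (0.38). IFI35 (0.0058) went to -9.6e-05 with the pseudocount, to -0.017 after quantile normalization and to -0.0064 after median rescaling, and IRF7 (0.01) to -0.015 after quantile normalization. With 1 sample left out, these differences ran from -0.24 to 0.13 for IFI35 and from -0.063 to 0.0747 for IRF7. The others that changed sign were IFIT2 (-0.46 to 1.33), IFIT3 (-0.22 to 1.32), OASL (-0.30 to 1.20), ISG15 (-0.085 to 0.52), IFIH1 (-0.51 to 0.26), IFI6 (-0.30 to 0.11), IFNAR1 (-0.18 to 0.016), MAVS (-0.10 to 0.13), EIF2AK2 (-0.14 to 0.036) and STAT2 (-0.15 to 0.013). Low read numbers widen the counting intervals, as for TLR3.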
